A study of Mus musculus with 32 samples.

Results

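Inhibin, activin and anti-Müllerian hormone (AMH) signalling was followed through 10 genes, taken by symbol from 55450 genes in the tables: the subunit genes Inha, Inhba and Inhbb, the hormone gene Amh, the activin antagonists Fst and Fstl3, and the receptor genes Amhr2, Acvr1b, Acvr2a and Acvr2b. All 10 were found and all 10 passed the filter on low counts. RNA was sequenced from 32 samples of female mice in 10 groups. The 26 tumours came from 4 models of high-grade ovarian carcinoma, as 12 tumours of genetically engineered mice (GEMM) and 14 allografts, and were harvested at endpoint, months after induction. All 4 models carried Brca1 fl/fl and the Tg/+ transgene K18GT121, which blocks the Rb family. OSE-BPR tumours (5 allografts, 3 GEMM) and Ad-BPR tumours (4 allografts, 2 GEMM) also carried Trp53 fl/fl and received an adenovirus with Cre, placed below the ovarian bursa for OSE-BPR, whose origin is the ovarian surface epithelium, and in the oviduct for Ad-BPR. Pax8-BPR tumours (2 allografts, 4 GEMM) carried Trp53 fl/fl and Pax8-CreERT2 Tg/+, and Ovgp1-BPR tumours (3 allografts, 3 GEMM) carried Trp53 KozR172H ki/+ and Ovgp1-CreERT2 Tg/+ by their sample labels, while the series text writes Trp53 fl/fl and Ovgp1-iCreERT2 for them. Both received tamoxifen, and both transgenes drive Cre in secretory cells of the oviduct. OSE-BPR mice were FVB and all others C57Bl/6, so that strain and OSE-BPR origin cannot be told apart. By the sample labels Ovgp1-BPR also differed from the other models in its Trp53 allele, so that this allele and the Ovgp1-BPR model cannot be told apart. The references were 3 normal oviducts and 3 normal ovaries of the same 3 wild type C57Bl/6 mice. Ages, and the tumours from which allografts were made, are not given in the labels.

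Inhibins are dimers of the alpha subunit, encoded by Inha, with a beta subunit, encoded by Inhba (beta A) or Inhbb (beta B), whereas activins are dimers of beta subunits alone. Activins bind the type II receptors encoded by Acvr2a and Acvr2b, which recruit the type I receptor ALK4, encoded by Acvr1b, and activate Smad2 and Smad3. Inhibins compete for the type II receptors with the help of betaglycan (Tgfbr3), and follistatin (Fst) and follistatin-like 3 (Fstl3) trap activins. AMH signals through its own type II receptor, encoded by Amhr2, to the BMP-type Smads. In the ovary, granulosa cells are the main source of inhibins and AMH.

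Levels are given as TPM (transcript counts scaled to a common total), which are divided by gene length and can be compared between genes. The 10 genes spanned from 0 TPM for Fst in an OSE-BPR allograft to 2971 TPM for Inha in a normal ovary. Fold changes come from counts, and a gene counted as called where edgeR's quasi-likelihood test gave an adjusted p (Benjamini-Hochberg, over all genes of a fit) under 0.05. Library depth ranged from 13987123 to 20514825 counts. Bulk RNA cannot tell fewer cells of a type from less RNA per cell. Markers of other cell types moved with the tumour models. The summed TPM of 6 surface epithelium and mesothelium markers was 617 to 1269 in OSE-BPR and 549 to 2140 in Ovgp1-BPR tumours, against 46.4 to 498 in Ad-BPR and Pax8-BPR tumours. The sum of 6 fibroblast markers was 215 to 806 in OSE-BPR and 711 to 1391 in Ovgp1-BPR tumours, against 1623 to 7234 in Ad-BPR and Pax8-BPR tumours. Of 5 oviduct secretory markers the sum was 193 to 1585 TPM in oviduct-origin tumours, 110 to 266 TPM in OSE-BPR tumours and 3073 to 7088 TPM in normal oviduct. Among normal tissues, oviduct replicates 1 and 3 held transcripts of ovarian cells. Their 7 granulosa markers summed to 147 and 112 TPM, and their 6 oocyte markers to 79.6 and 68.4 TPM, against 28.5 and 3.36 TPM in oviduct replicate 2.

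**Figure D1:**
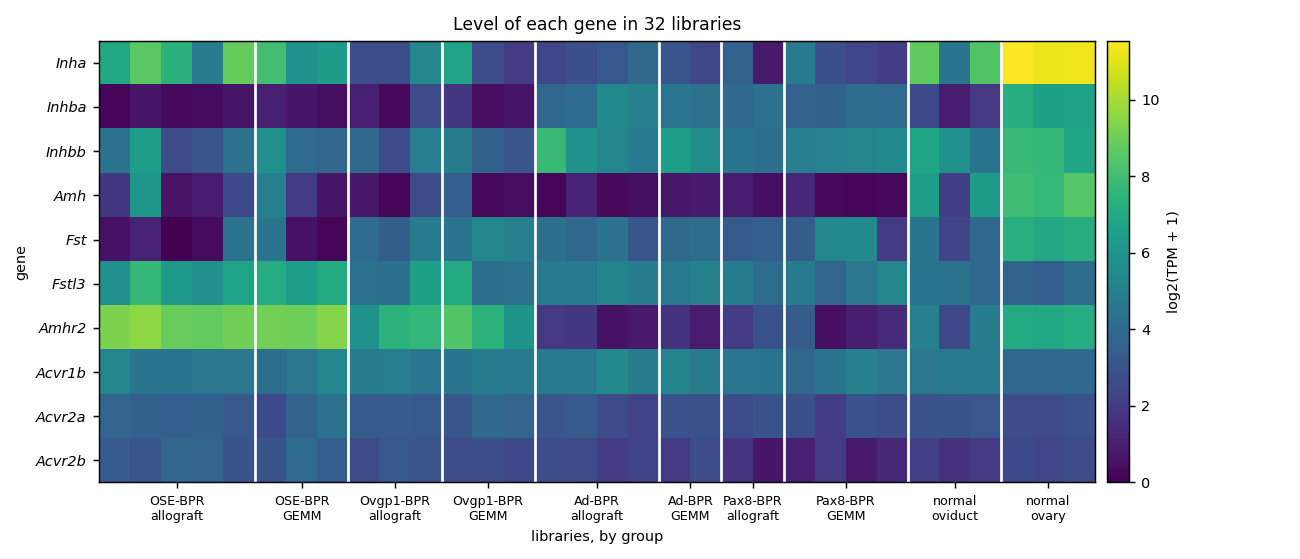
Level of the 10 genes in 32 libraries as log2(TPM + 1), with 1 column per library and white lines between groups. Amhr2 is bright in OSE-BPR and Ovgp1-BPR tumours and dark in Ad-BPR and Pax8-BPR tumours, Inhba has the opposite order, and normal ovary is brightest for Inha.

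Between the tumour models, Amhr2 and Inhba moved in opposite directions. Amhr2 was higher and Inhba lower in OSE-BPR tumours than in oviduct-origin tumours, and likewise in Ovgp1-BPR tumours against Ad-BPR and Pax8-BPR tumours, in allografts and in GEMM tumours. Where several groups stand on a side of a comparison, their log means were weighted equally, so oviduct-origin is the mean of Ad-BPR, Pax8-BPR and Ovgp1-BPR. For OSE-BPR against oviduct-origin allografts, 6 of the 10 genes were called (5 higher, 1 lower), where 37.8% of 20000 genes were called (20.4% higher, 17.4% lower). Among GEMM tumours 5 of the 10 were called (4 higher, 1 lower), against 26% of all genes (14.9% higher, 11.1% lower). For Ovgp1-BPR against Ad-BPR and Pax8-BPR, 2 of 10 were called in allografts (1 higher, 1 lower), where 22.3% of all genes were called (13.7% higher, 8.6% lower), and 2 of 10 in GEMM tumours (1 higher, 1 lower), where 22.7% of all genes were called (12.5% higher, 10.2% lower), so that these counts lay near the share of all genes. The median log2 fold change of the 10 genes in these comparisons was 0.95, 1.03, 0.41 and 0.79 in the order given, beside 0.04, 0.02, 0.02 and -0.01 over all genes.

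**Figure D2:**
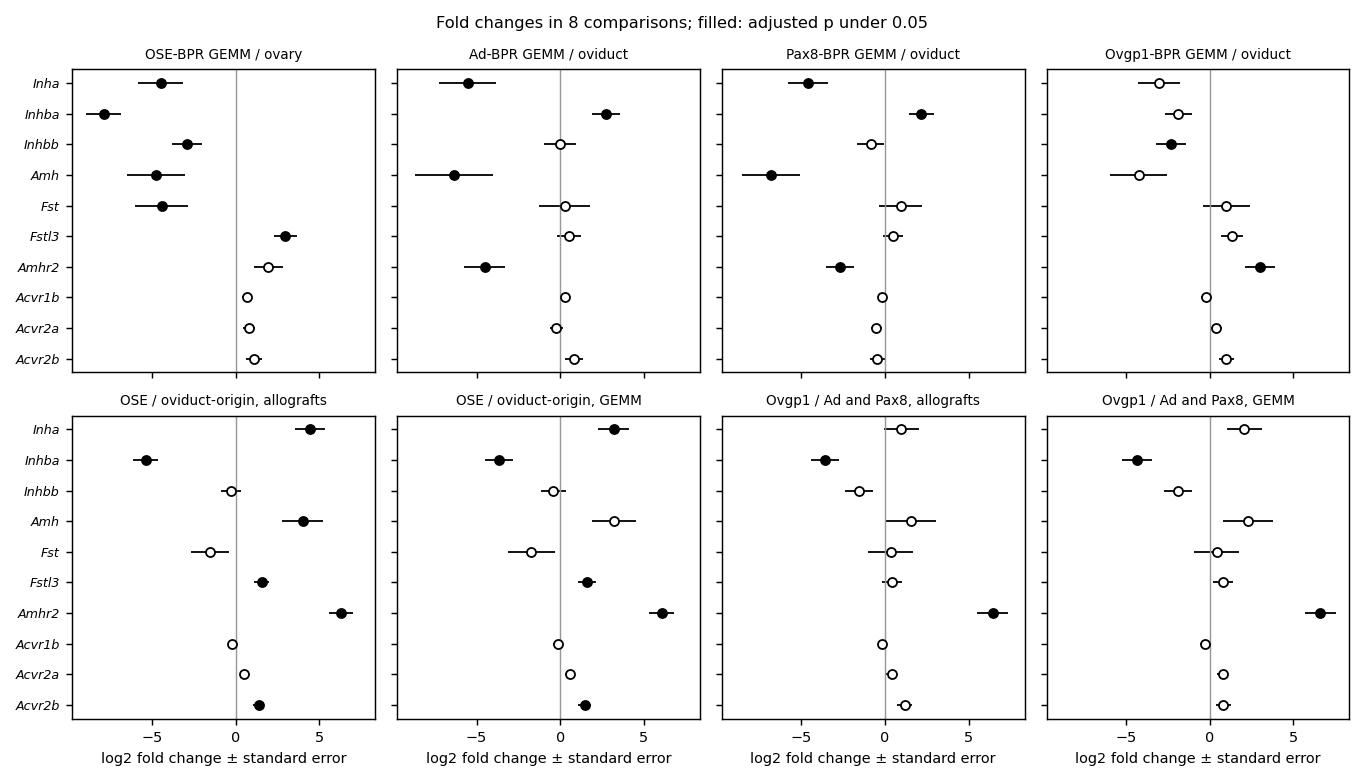
Log2 fold changes with their standard errors (bars) of the 10 genes in 8 comparisons, with the group named before the slash over the group after it, and filled points for adjusted p under 0.05. Upper panels compare GEMM tumours with normal tissue and lower panels compare tumour models. Amhr2 lies at 6.07 to 6.60 and Inhba at -5.37 to -3.59 in all 4 lower panels.

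Of the ligand genes, Inha lies on chromosome 1 (GRCm38, 75507077 to 75510366, plus strand). Its level was 116, 389, 168, 29.1 and 447 TPM in OSE-BPR allografts and 263, 58.6 and 82.8 TPM in OSE-BPR GEMM tumours. Ovgp1-BPR tumours had 5.62, 5.93 and 39.8 TPM as allografts and 107, 5.58 and 3.02 TPM as GEMM tumours. Ad-BPR and Pax8-BPR tumours had 0.76 to 25.5 TPM, with a median of 6.06 TPM over 12 libraries. All 8 OSE-BPR tumours lay above all 12 Ad-BPR and Pax8-BPR tumours, while Ovgp1-BPR GEMM replicate 1 and Ovgp1-BPR allograft replicate 3 lay within the OSE-BPR range. Inha was higher in OSE-BPR than in oviduct-origin allografts by 4.44 ± 0.90 on the log2 scale (standard error, adjusted p = 0.00074), and in GEMM tumours by 3.19 ± 0.92 (adjusted p = 0.015). The GEMM call was lost without OSE-BPR GEMM replicate 1 (2.27, adjusted p = 0.1) or without Ad-BPR GEMM replicate 2 (3.08, adjusted p = 0.064).

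Amh, on chromosome 10 (80805243 to 80807648, plus strand), was low in most tumours. OSE-BPR allografts had 2.69, 67.9, 0.52, 0.87 and 4.83 TPM, and OSE-BPR GEMM tumours 30.2, 3.07 and 0.58 TPM. Ovgp1-BPR tumours had 0.67, 0.12 and 5.17 TPM as allografts and 10.1, 0.20 and 0.29 TPM as GEMM tumours, and Ad-BPR and Pax8-BPR tumours had 0.11 to 1.43 TPM. The groups overlapped, and the 4 values above 5 TPM stood in libraries that were the highest or next to highest of their group in Inha. Amh was called in allografts (log2 4.01 ± 1.24, adjusted p = 0.015), but not without OSE-BPR allograft replicate 2 (1.28, adjusted p = 0.37) or without Pax8-BPR allograft replicate 1 or 2 (0.063 and 0.077). In GEMM tumours the difference was 3.22 ± 1.30 (adjusted p = 0.072), and 0.59 without OSE-BPR GEMM replicate 1 (adjusted p = 0.81). It was called without Ovgp1-BPR GEMM replicate 1 (4.50, adjusted p = 0.017), without Pax8-BPR GEMM replicate 1 (3.8, adjusted p = 0.039) and by DESeq2 (3.23, adjusted p = 0.041).

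Values of 3 markers, Nr5a1, Upk3b and Col1a1, chosen after their values were seen, are given beside these genes. Nr5a1, which encodes a transcription factor of gonadal and adrenal cells, had 93.3 to 207 TPM in OSE-BPR tumours. Among Ovgp1-BPR tumours it had 51.5 TPM in GEMM replicate 1 and 44.2 TPM in allograft replicate 3, the pair of Ovgp1-BPR tumours with high Inha, and 0.05 to 1.3 TPM in the other 4. Among Ad-BPR and Pax8-BPR tumours it had 14.5 TPM in Pax8-BPR GEMM replicate 1, the library with the highest Inha of these models, and 0 to 1.49 TPM elsewhere. Of the granulosa genes, Cyp19a1 (aromatase) and Fshr (the FSH receptor) were at or near 0 in all tumours, with at most 0.05 and 0.79 TPM. Of 6 theca and luteal markers, Lhcgr, the LH receptor, was at most at 0.33 TPM in tumours. All 6 together summed to 4.98 to 116 TPM in tumours, against 6080 to 7532 TPM in normal ovary. Foxl2, a granulosa transcription factor gene also named after its values were seen, had 0.92 to 31.9 TPM in OSE-BPR tumours, with 20.3 TPM or more in GEMM replicates 1 and 2 and allograft replicates 2 and 5, 0.03 to 9.5 TPM in Ovgp1-BPR and 0 to 4.83 TPM in Ad-BPR and Pax8-BPR tumours, against 136 to 152 TPM in normal ovary. The 7 granulosa markers, which include Nr5a1, summed to 125 to 248 TPM in OSE-BPR, 2.52 to 66.2 TPM in Ovgp1-BPR and 0.79 to 22.3 TPM in Ad-BPR and Pax8-BPR tumours, against 780 to 886 TPM in normal ovary. Nr5a1 made up 74.7 to 96.0% of that sum in OSE-BPR tumours, and the other 6 markers summed to 8.06 to 40.6 TPM in OSE-BPR, 2.47 to 14.7 TPM in Ovgp1-BPR and 0.73 to 7.86 TPM in Ad-BPR and Pax8-BPR tumours, against 529 to 651 TPM in normal ovary. The part of these cells in the Inha and Amh differences was not tested.

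**Figure D3:**
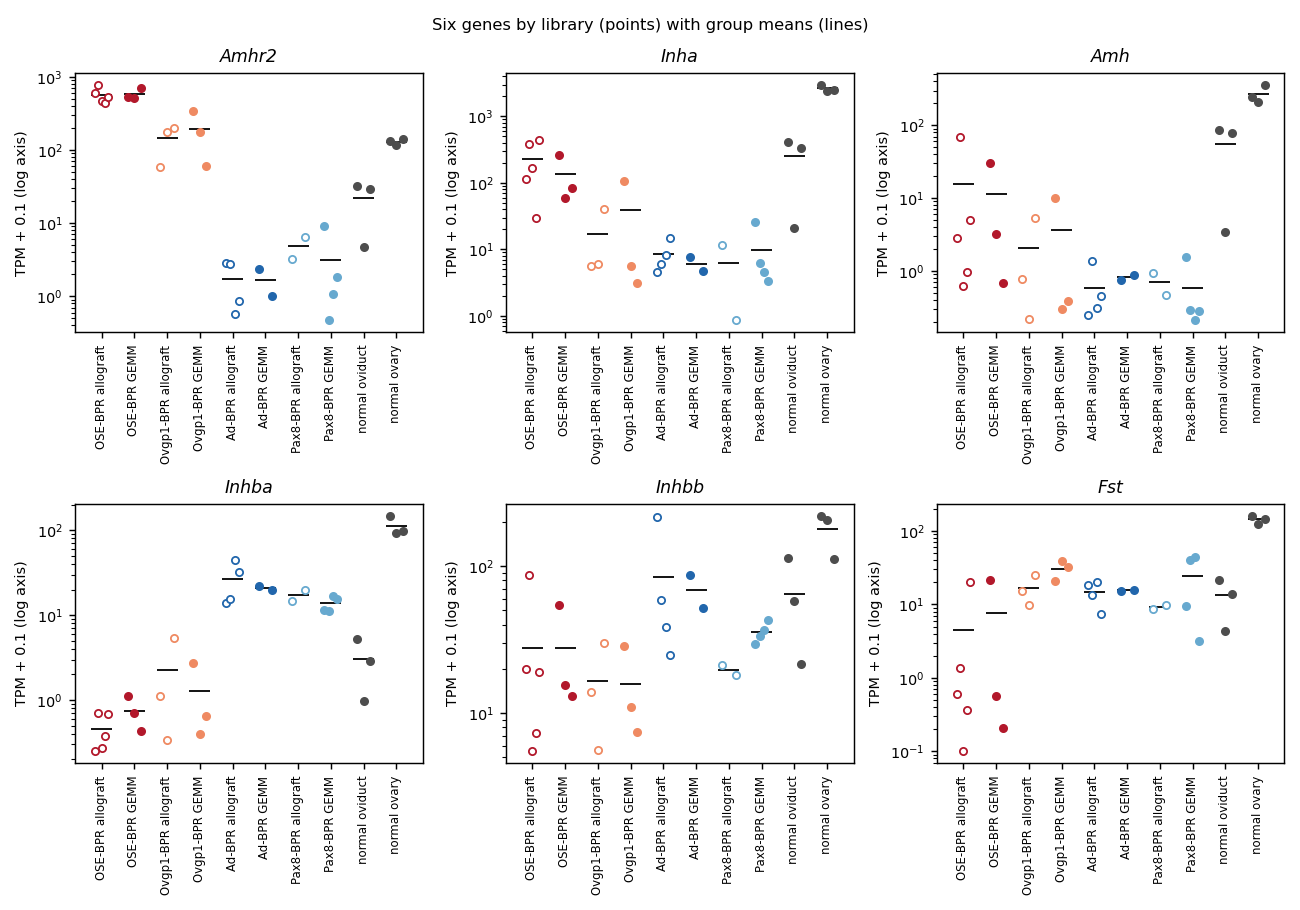
TPM of 6 genes in each library (points, log axis, 0.1 TPM added) by group, with horizontal lines for group means; open points are allografts and filled points GEMM tumours or normal tissue. All OSE-BPR and Ovgp1-BPR points for Amhr2 lie at 58.9 TPM or above and all Ad-BPR and Pax8-BPR points at 9.18 TPM or below.

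Inhba, the beta A gene on chromosome 13 (16011851 to 16031621, plus strand), separated the models the other way. OSE-BPR tumours had 0.15, 0.61, 0.17, 0.28 and 0.58 TPM as allografts and 1.01, 0.61 and 0.33 TPM as GEMM tumours, and Ovgp1-BPR tumours 1.02, 0.24 and 5.23 TPM as allografts and 2.64, 0.30 and 0.55 TPM as GEMM tumours. Ad-BPR allografts had 13.7, 15.4, 44.8 and 32.2 TPM and Ad-BPR GEMM tumours 22.0 and 19.6 TPM. Pax8-BPR allografts had 14.5 and 19.7 TPM and Pax8-BPR GEMM tumours 11.4, 11.1, 16.6 and 15.4 TPM. Each Ad-BPR and Pax8-BPR tumour lay above each OSE-BPR and Ovgp1-BPR tumour. Inhba was lower in OSE-BPR than in oviduct-origin tumours, with a log2 fold change of -5.37 ± 0.74 in allografts (adjusted p = 1.9e-05) and -3.69 ± 0.84 in GEMM tumours (adjusted p = 0.0034). It was also lower in Ovgp1-BPR than in Ad-BPR and Pax8-BPR tumours, with -3.59 ± 0.84 in allografts (adjusted p = 0.0047) and -4.34 ± 0.88 in GEMM tumours (adjusted p = 0.0022). These 4 calls held in all alternatives run. Col1a1, a fibroblast collagen gene, had 4.78 to 167 TPM in OSE-BPR and 21.3 to 232 TPM in Ovgp1-BPR tumours. Ad-BPR and Pax8-BPR tumours had 523 to 2726 TPM. Dcn, of the same fibroblast list and also named after its values were seen, did not follow this order. It had 158 to 562 TPM in OSE-BPR, 155 to 1259 TPM in Ovgp1-BPR and 28.5 to 356 TPM in Ad-BPR and Pax8-BPR tumours. Of 6 fibroblast markers, 3 were lower and 1 higher in Ovgp1-BPR than in Ad-BPR and Pax8-BPR GEMM tumours, where 10.2% of all genes were lower and 12.5% higher. In allografts 2 were lower and 1 higher, where 8.6% of all genes were lower and 13.7% higher. In OSE-BPR against oviduct-origin GEMM tumours 3 were lower and 0 higher, where 11.1% of all genes were lower and 14.9% higher. The allografts of that comparison had 4 lower and 0 higher, where 17.4% of all genes were lower and 20.4% higher. The part of fibroblasts in the Inhba difference was not tested.

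Inhbb, the beta B gene on chromosome 1 (119415465 to 119422248, minus strand), was the more abundant beta transcript in 23 of 26 tumours. It had 5.40 to 87.1 TPM in OSE-BPR, 5.49 to 30.0 TPM in Ovgp1-BPR, 24.8 to 217 TPM in Ad-BPR and 18.1 to 43.0 TPM in Pax8-BPR tumours, and the ranges of OSE-BPR and oviduct-origin tumours overlapped. No comparison between tumour models called it with all libraries (adjusted p = 0.11 or more). Log2 fold changes were -0.26 ± 0.61 and -0.42 ± 0.74 for OSE-BPR against oviduct-origin allografts and GEMM tumours. For Ovgp1-BPR against Ad-BPR and Pax8-BPR they were -1.55 ± 0.83 in allografts and -1.88 ± 0.84 in GEMM tumours. In these GEMM tumours the ranges did not overlap, and 12 of 14 alternatives left Inhbb uncalled.

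The ratio of alpha to beta transcripts was higher in OSE-BPR than in the other models. Inha over the sum of Inhba and Inhbb, as a ratio of TPM, was 3.65 to 30.3 in 8 OSE-BPR tumours (median 5.29), 0.379 to 3.45 in 6 Ovgp1-BPR tumours (median 0.765) and 0.0192 to 0.626 in 12 Ad-BPR and Pax8-BPR tumours (median 0.0837). Every OSE-BPR tumour lay above every oviduct-origin tumour. Inhba made up 0.696 to 3.8% of beta transcripts in OSE-BPR and 2.66 to 14.8% in Ovgp1-BPR tumours, against 5.93 to 56.5% in Ad-BPR and Pax8-BPR tumours. These are ratios of transcripts and carry no measure of the proteins.

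**Figure D4:**
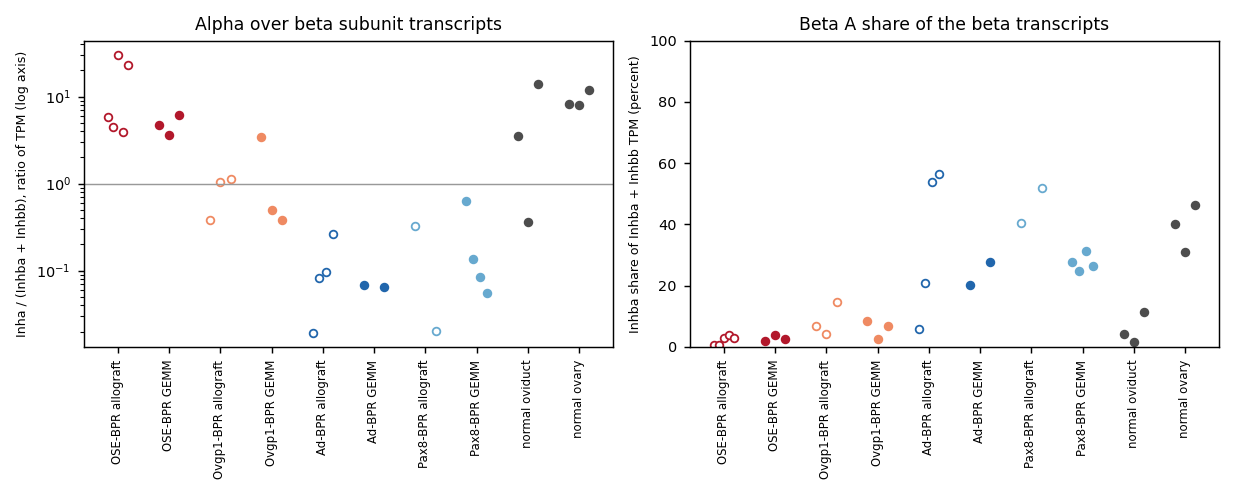
Left, TPM of Inha divided by the summed TPM of Inhba and Inhbb in each library, on a log axis with a line at 1; right, the percent of beta transcripts that came from Inhba. All 8 OSE-BPR points on the left lie at 3.65 or above and all 12 Ad-BPR and Pax8-BPR points at 0.626 or below.

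Of the antagonists, Fst on chromosome 13 (114452290 to 114458951, minus strand) varied most within OSE-BPR tumours. Their allografts had 0.50, 1.24, 0, 0.26 and 20.1 TPM and their GEMM tumours 21.7, 0.47 and 0.11 TPM, while oviduct-origin tumours had 3.09 to 43.6 TPM. Of the 8 OSE-BPR tumours, 6 lay below every oviduct-origin tumour. The groups overlapped through OSE-BPR allograft replicate 5 and OSE-BPR GEMM replicate 1, and no comparison between models called Fst with all libraries (log2 -1.53 ± 1.13 in allografts, adjusted p = 0.3, and -1.74 ± 1.41 in GEMM tumours, adjusted p = 0.38). Without OSE-BPR allograft replicate 5 it was -4.97 in allografts (adjusted p = 0.0042), without OSE-BPR GEMM replicate 1 it was -7.63 in GEMM tumours (adjusted p = 0.014), and limma on log2(TPM + 1) called it in both (-2.47, adjusted p = 0.012, and -2.61, adjusted p = 0.03). Fstl3, on chromosome 10 (79777272 to 79782630, plus strand), had 53.8, 207, 75.8, 55.9 and 104 TPM in OSE-BPR allografts and 136, 83.6 and 131 TPM in OSE-BPR GEMM tumours. Ad-BPR and Pax8-BPR tumours had 12.4 to 36.9 TPM, and Ovgp1-BPR tumours 17.7 to 19.2 TPM except for 92.1 TPM in allograft replicate 3 and 131 TPM in GEMM replicate 1. Those Ovgp1-BPR libraries were the pair with high Inha, Amh and Nr5a1. Fstl3 was higher in OSE-BPR than in oviduct-origin allografts (log2 1.56 ± 0.47, adjusted p = 0.014) and GEMM tumours (1.61 ± 0.54, adjusted p = 0.032). The allograft call was lost without OSE-BPR allograft replicate 2 (adjusted p = 0.075) or Pax8-BPR allograft replicate 2 (0.064), and the GEMM call in 5 of the settings without 1 library, at up to 0.11. Set against the beta transcripts, the summed TPM of Fst and Fstl3 was 2.38 to 13.6 times that of Inhba and Inhbb in OSE-BPR tumours and 2.32 to 6.51 times in Ovgp1-BPR tumours, against 0.195 to 1.25 times in Ad-BPR and Pax8-BPR tumours, 0.362 to 1.11 times in oviduct and 0.449 to 0.779 times in ovary. Every OSE-BPR and Ovgp1-BPR tumour thus lay above every other library in this ratio.

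Of the receptors, Amhr2 on chromosome 15 (102445367 to 102454633, plus strand) differed most between the models. OSE-BPR tumours had 608, 775, 469, 433 and 524 TPM as allografts and 537, 514 and 704 TPM as GEMM tumours. Ovgp1-BPR tumours had 58.9, 176 and 201 TPM as allografts and 337, 178 and 60.9 TPM as GEMM tumours. Ad-BPR allografts had 2.72, 2.65, 0.47 and 0.75 TPM, Ad-BPR GEMM tumours 2.27 and 0.92 TPM, Pax8-BPR allografts 3.16 and 6.42 TPM and Pax8-BPR GEMM tumours 9.18, 0.37, 0.98 and 1.71 TPM. The OSE-BPR, Ovgp1-BPR and remaining tumours formed ranges that did not overlap. Amhr2 was higher in OSE-BPR than in oviduct-origin tumours by 6.29 ± 0.73 on the log2 scale in allografts (adjusted p = 3.2e-06) and 6.07 ± 0.75 in GEMM tumours (adjusted p = 1.1e-05). It was higher in Ovgp1-BPR than in Ad-BPR and Pax8-BPR tumours by 6.43 ± 0.92 in allografts (adjusted p = 8.7e-05) and 6.60 ± 0.93 in GEMM tumours (adjusted p = 0.00013). These 4 calls held in all alternatives run. Unlike Inha, Amhr2 was high in all 6 Ovgp1-BPR tumours, also in the 4 with Nr5a1 at 1.3 TPM or below. Upk3b, a mesothelial and surface epithelial gene, had 285 to 661 TPM in OSE-BPR and 159 to 1068 TPM in Ovgp1-BPR tumours, against 0.16 to 13.7 TPM in Ad-BPR and Pax8-BPR tumours, and its part in the Amhr2 difference was not tested.

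**Figure D5:**
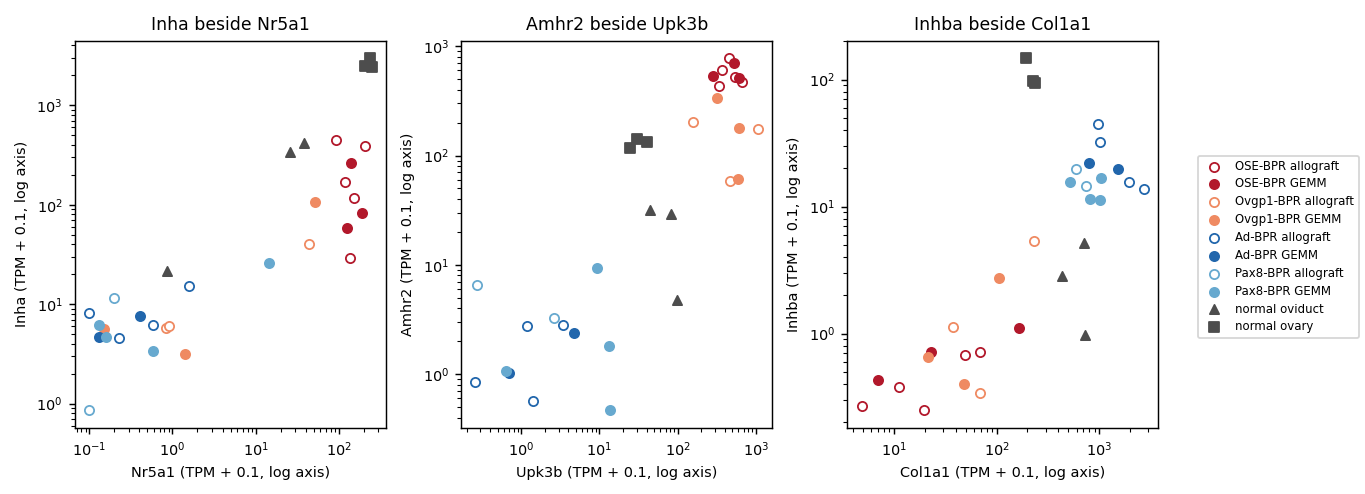
TPM per library (log axes, 0.1 TPM added) of Inha beside Nr5a1, Amhr2 beside Upk3b and Inhba beside Col1a1; open circles are allografts, filled circles GEMM tumours, triangles normal oviduct and squares normal ovary. Ovgp1-BPR tumours split into 2 with Nr5a1 at 44.2 TPM or above and 4 at 1.3 TPM or below, and in normal ovary Inhba is high at Col1a1 levels of 192 to 238 TPM.

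The 250 bases before the RefSeq start of Amhr2 and Inhba are shown because these genes separated the models in opposite directions. The windows are chr15:102445117-102445366 for Amhr2 and chr13:16011601-16011850 for Inhba, plus strand, RefSeq on GRCm38.p6. Capitals mark the letters AAGGTCA, a core motif bound by NR5A factors, and TATAA.
Amhr2: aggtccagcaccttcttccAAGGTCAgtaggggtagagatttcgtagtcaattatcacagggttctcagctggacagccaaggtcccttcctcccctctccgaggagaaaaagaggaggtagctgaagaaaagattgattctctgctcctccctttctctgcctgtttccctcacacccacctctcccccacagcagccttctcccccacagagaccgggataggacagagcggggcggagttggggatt
Inhba: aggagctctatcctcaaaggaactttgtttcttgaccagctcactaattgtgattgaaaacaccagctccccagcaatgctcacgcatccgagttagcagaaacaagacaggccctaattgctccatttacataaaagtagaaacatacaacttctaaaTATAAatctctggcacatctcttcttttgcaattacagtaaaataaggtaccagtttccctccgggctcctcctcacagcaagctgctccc
AAGGTCA stood at bases -231 to -225 before Amhr2, and TATAA at -91 to -87 before Inhba. Of the 8 genes with a window in the table (all but Amh and Fst), 1 held AAGGTCA on either strand, and the only other TATAA was on the opposite strand before Fstl3, at -28 to -24. Among 32851 promoter windows of the same length, 4.08% held AAGGTCA and 22.8% held TATAA, and the motifs share no bases here.

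The activin receptors varied less. Acvr2b, on chromosome 9 (119402118 to 119434995, plus strand), had 8.85, 7.40, 13.1, 12.4 and 6.87 TPM in OSE-BPR allografts and 6.86, 15.2 and 10.1 TPM in OSE-BPR GEMM tumours. Ovgp1-BPR tumours had 4.91 to 7.97 TPM, Ad-BPR tumours 2.91 to 5.86 TPM and Pax8-BPR tumours 0.60 to 2.99 TPM. It was higher in OSE-BPR than in oviduct-origin tumours, by 1.38 ± 0.34 on the log2 scale in allografts (adjusted p = 0.0039) and by 1.46 ± 0.39 in GEMM tumours (adjusted p = 0.01), where the ranges did not overlap and the call was lost without OSE-BPR GEMM replicate 2 (1.18, adjusted p = 0.082). Acvr2a, on chromosome 2 (48814109 to 48903269, plus strand), had 4.76 to 19.6 TPM in OSE-BPR and 3.32 to 14.4 TPM in oviduct-origin tumours and was not called between models. It overlaps Orc4 on the opposite strand over 446 bases, and the strandedness of counting is not given. Acvr1b, on chromosome 15 (101174067 to 101213684, plus strand), had 17.1 to 37.1 TPM in OSE-BPR and 13.2 to 41.9 TPM in oviduct-origin tumours, and its log2 differences between models were -0.31 to -0.15 with no call.

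No difference between allografts and GEMM tumours was detected for these genes. For allografts against GEMM tumours over the 4 models, 0 of the 10 genes and 0 of 20000 genes were called by edgeR (0%), with 1210 of all genes and 0 of the 10 at an unadjusted p under 0.05, and up to 33 of all genes by other settings. Log2 fold changes were -0.81 ± 0.78 for Fst to 0.21 ± 0.41 for Inhba. The difference of the model contrasts between allografts and GEMM tumours was called for none of the 10 genes, and its standard errors reached 2.16 on the log2 scale, which limits what could be called.

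Set against normal ovary, OSE-BPR GEMM tumours had lower levels of the subunit genes, Amh and Fst. Inha had 2971, 2424 and 2511 TPM in ovary, Inhba 147, 93.3 and 96.8 TPM, Inhbb 219, 207 and 112 TPM, Amh 244, 212 and 357 TPM, and Fst 160, 125 and 146 TPM. All were above every OSE-BPR GEMM value. In this comparison 6 of the 10 genes were called (1 higher, 5 lower), where 23.2% of 20887 genes were called (11.6% higher, 11.6% lower). Log2 fold changes were -7.89 ± 1.04 for Inhba (adjusted p = 1.8e-05), and lower levels were also called for Amh (-4.78 ± 1.73, adjusted p = 0.047), Inha (-4.47 ± 1.34, adjusted p = 0.018), Fst (-4.42 ± 1.57, adjusted p = 0.044) and Inhbb (-2.90 ± 0.91, adjusted p = 0.023). Without OSE-BPR GEMM replicate 1, Fst was at -10.29 and Amh at -7.38. Fstl3 rose by 2.98 ± 0.70 (adjusted p = 0.0034) over 12.1, 10.1 and 15.9 TPM in ovary. Amhr2, at 132, 116 and 141 TPM in ovary, lay above all ovaries in all OSE-BPR GEMM tumours but was not called (1.97 ± 0.87, adjusted p = 0.1). The calls of Inhba and Fstl3 held in all alternatives, whereas those of Inha, Inhbb, Amh and Fst were each lost without OSE-BPR GEMM replicate 2 or 3 (adjusted p = 0.074 to 0.15). Those of Inhbb, Amh and Fst were also lost without ovary replicate 1 or 2 (adjusted p = 0.059 to 0.081), and those of Amh and Fst without ovary replicate 3 (0.098 and 0.081). A whole ovary holds granulosa, luteal and germ cells beside the surface epithelium. In the tumours 5 of 7 granulosa, 6 of 6 theca and luteal and 6 of 6 oocyte markers were lower. The part of these cells in the differences from ovary was not tested. These tumours were FVB and the ovaries C57Bl/6, so that strain cannot be told apart from tumour here.

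Against normal oviduct, Inha, Amh and Amhr2 were lower and Inhba higher in GEMM tumours of the Ad-BPR and Pax8-BPR models, calls that were lost without oviduct replicates 1 and 3, whereas Amhr2 was higher in Ovgp1-BPR GEMM tumours. Oviduct replicates 1 to 3 had 415, 21.2 and 336 TPM of Inha, 84.8, 3.35 and 78.9 TPM of Amh, 32.0, 4.68 and 28.8 TPM of Amhr2 and 5.10, 0.87 and 2.76 TPM of Inhba. Replicate 2, with the fewest ovarian cell transcripts, was lowest in all 4 genes. In Ad-BPR GEMM tumours 4 of the 10 genes were called, 1 higher and 3 lower, where 24.1% of 20887 genes were called (11.7% higher, 12.3% lower). Inhba was higher (log2 2.73 ± 0.86, adjusted p = 0.024), and Inha (-5.54 ± 1.71, adjusted p = 0.021), Amh (-6.36 ± 2.32, adjusted p = 0.047) and Amhr2 (-4.51 ± 1.23, adjusted p = 0.01) were lower. In Pax8-BPR GEMM tumours 4 of the 10 genes were called, 1 higher and 3 lower, where 32.2% of all genes were called (15.9% higher, 16.3% lower). Log2 fold changes were for Inhba 2.18 ± 0.77 (adjusted p = 0.033), Inha -4.61 ± 1.20 (adjusted p = 0.0051), Amh -6.81 ± 1.75 (adjusted p = 0.0045) and Amhr2 -2.67 ± 0.83 (adjusted p = 0.016). Without oviduct replicates 1 and 3, which leaves a lone oviduct that is assumed to vary like the other groups, 0 of the 10 genes were called in either model. Inhba was then 4.50 (adjusted p = 0.062) and 3.99 (adjusted p = 0.066) higher, while Inha moved to -1.90 and -0.92, Amh to -2.28 and -2.67, and Amhr2 to -2.20 and -0.30. In Ad-BPR, leaving out either GEMM tumour also left 0 calls, and in both models the call of Inhba was lost without oviduct replicate 2 or 3 (adjusted p = 0.07 to 0.13). Oviduct replicate 1 or 3 decided the calls of Amh in Ad-BPR (0.087 and 0.08) and of Amhr2 in Pax8-BPR (0.073 and 0.056), and without Pax8-BPR GEMM replicate 4 neither Inhba (0.053) nor Amhr2 (0.051) was called, nor was Inhba without replicate 3 (0.063).

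In Ovgp1-BPR GEMM tumours 2 of the 10 genes were called against oviduct (1 higher, 1 lower), where 32.6% of all genes were called (15.3% higher, 17.3% lower). Amhr2 was higher (log2 3.01 ± 0.91, adjusted p = 0.014), and all 3 tumours lay above all 3 oviducts. It was 5.30 higher without oviduct replicates 1 and 3 (adjusted p = 0.04), and not called without Ovgp1-BPR GEMM replicate 1 (2.25, adjusted p = 0.063) or oviduct replicate 2 (2.56, adjusted p = 0.061). Inhbb was lower (-2.31 ± 0.89, adjusted p = 0.049), and this call was lost in 4 of the settings without 1 library (without Ovgp1-BPR GEMM replicate 2 or 3 or oviduct replicate 1 or 2, adjusted p = 0.078 to 0.24). Inha (-3.01 ± 1.26, adjusted p = 0.068), Amh (-4.25 ± 1.70, adjusted p = 0.057) and Inhba (-1.88 ± 0.81, adjusted p = 0.077) had negative log2 fold changes but were not called. Inha changed sign without oviduct replicates 1 and 3. The comparisons of tumours with oviduct share their oviducts.

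Normal oviduct against normal ovary called 8 of the 10 genes (3 higher, 5 lower), where 53% of 17334 genes were called (28.5% higher, 24.5% lower). Inhba (log2 -5.12 ± 0.63, adjusted p = 0.00059), Fst (-3.32 ± 0.50, adjusted p = 0.0015), Inha (-3.19 ± 0.92, adjusted p = 0.023), Amhr2 (-2.63 ± 0.61, adjusted p = 0.0097) and Acvr2b (-0.74 ± 0.21, adjusted p = 0.023) were lower in oviduct. Acvr1b had 23.2, 26.5 and 25.0 TPM in oviduct, against 13.8, 13.5 and 14.5 TPM in ovary, and was higher by 0.97 ± 0.06 (adjusted p = 3.5e-05). Fstl3 (0.68, adjusted p = 0.039) and Acvr2a (0.42, adjusted p = 0.014) were also higher. With all 32 libraries in the fit, 3 of the 10 were called, and with the animal as a block 7 were called, without Fstl3 (0.66, adjusted p = 0.092) and Acvr2b (-0.75, adjusted p = 0.051) and with Inhbb (-1.59). The call of Inha was lost without ovary replicate 1 or 3 or oviduct replicate 3 (adjusted p = 0.05 to 0.058), that of Fstl3 without ovary replicate 1 or 2 or oviduct replicate 1 or 2 (0.088 to 0.13), that of Acvr2a without ovary replicate 1 or 2 (0.059 and 0.063) and that of Acvr2b without ovary replicate 2 or 3 (0.06 and 0.065). Amh (-2.11 ± 0.91, adjusted p = 0.089) and Inhbb (-1.34 ± 0.58, adjusted p = 0.088) were not called with the 6 normal libraries. Without oviduct replicates 1 and 3, which leaves a lone oviduct, the differences were -6.87 for Inha, -6.25 for Amh and -4.99 for Amhr2.

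Of 52 other genes listed for the pathway (ligands, receptors, antagonists, Smads, convertases and targets), 45 to 47 were tested per comparison. Part of the listed targets, which were not split by branch of the pathway and include Smad6 and Id2, were higher in oviduct-origin GEMM tumours than in oviduct. Of 9 listed targets, 4 were higher in Ad-BPR, 4 in Pax8-BPR and 6 in Ovgp1-BPR GEMM tumours than in oviduct, where 11.7%, 15.9% and 15.3% of all genes were higher. In OSE-BPR against oviduct-origin tumours, 5 of the 9 were lower and 0 higher in allografts, where 17.4% of all genes were lower, and 5 lower and 0 higher in GEMM tumours, where 11.1% were lower. Of 45 listed genes tested there, 7 were higher and 13 lower in OSE-BPR than in oviduct-origin allografts. Over all genes 20.4% were higher and 17.4% lower in that comparison. In GEMM tumours 4 of the 45 were higher and 11 lower, where 14.9% of all genes were higher and 11.1% lower. Pmepa1, a target that dampens Smad signalling, had 316 to 395 TPM in Ad-BPR and 99.0 to 471 TPM in Pax8-BPR tumours, against 26.1 to 38.8 TPM in oviduct. It was 3.13 ± 0.67 higher in Ad-BPR GEMM tumours on the log2 scale (adjusted p = 0.0018), and its log2 fold change was -3.29 ± 0.66 for Ovgp1-BPR against Ad-BPR and Pax8-BPR GEMM tumours (adjusted p = 0.002). Skil, a Smad corepressor, was 2.75 ± 0.38 higher in Ad-BPR GEMM tumours than in oviduct (adjusted p = 1.3e-05).

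Among the other ligands and receptors, Bmp7, a BMP ligand, and Tgfbr3, which encodes betaglycan, were higher in Ovgp1-BPR than in Ad-BPR and Pax8-BPR tumours. Bmp7 had 49.4, 52.3 and 24.4 TPM in Ovgp1-BPR allografts and 27.5, 66.5 and 140 TPM in Ovgp1-BPR GEMM tumours, against 0.33 to 4.39 TPM in Ad-BPR and Pax8-BPR tumours, and was higher by 4.73 ± 0.74 in allografts (adjusted p = 0.00021) and 4.72 ± 0.74 in GEMM tumours (adjusted p = 0.00028). Tgfbr3 was higher there by 4.21 ± 0.68 (adjusted p = 0.00027) and 3.15 ± 0.65 (adjusted p = 0.0024). It had 17.4 to 83.6 TPM in Ovgp1-BPR tumours, 36.5 to 43.4 TPM in normal oviduct and 0.97 to 11.0 TPM in Ad-BPR and Pax8-BPR tumours. Against oviduct it was lower in Ad-BPR (-3.24 ± 0.85, adjusted p = 0.008) and Pax8-BPR GEMM tumours (-2.72 ± 0.63, adjusted p = 0.002). The Ad-BPR call was lost without Ad-BPR GEMM replicate 2. Grem1, a BMP antagonist, had 0 TPM in all 3 OSE-BPR GEMM tumours and at most 0.08 TPM in their allografts. Ovgp1-BPR tumours had 0.17 to 1.46 TPM, and Ad-BPR and Pax8-BPR tumours 0.66 to 26.9 TPM. It was also lower in Ovgp1-BPR than in Ad-BPR and Pax8-BPR tumours. The log2 fold change was -4.24 ± 1.14 in allografts (adjusted p = 0.012) and -3.30 ± 1.07 in GEMM tumours (adjusted p = 0.033). These calls held in 12 of 14 and 9 of 14 alternatives. The oocyte ligands Gdf9 and Bmp15 were lower in Ad-BPR, Pax8-BPR and Ovgp1-BPR GEMM tumours than in oviduct, but in none of the 3 without oviduct replicates 1 and 3. In that setting Pmepa1 had a log2 fold change of 3.51 in Ad-BPR GEMM tumours (adjusted p = 0.059), and Skil was 3.03 higher (adjusted p = 0.003).

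The order of group means differed between these genes. Amhr2 ran from OSE-BPR GEMM (585 ± 104 TPM, SD, n = 3) over OSE-BPR allografts (562 ± 136, n = 5), Ovgp1-BPR GEMM (192 ± 138, n = 3), Ovgp1-BPR allografts (145 ± 75.7, n = 3), ovary (130 ± 12.8, n = 3) and oviduct (21.8 ± 14.9, n = 3) to the Pax8-BPR and Ad-BPR groups (4.79 to 1.59). Its neighbours separated between OSE-BPR and Ovgp1-BPR and between ovary and oviduct, and the other 7 of 9 neighbouring pairs overlapped. Inhba ran from ovary (112 ± 29.9) over the Ad-BPR and Pax8-BPR groups (26.5 to 13.6) to oviduct (2.91 ± 2.12), Ovgp1-BPR (2.16 and 1.16) and OSE-BPR (0.65 and 0.358), and separated below ovary and above oviduct. Inha ran from ovary (2635 ± 294) over oviduct (257 ± 208), OSE-BPR allografts (230 ± 180) and GEMM tumours (135 ± 112) and the Ovgp1-BPR groups (38.7 and 17.1) to the Pax8-BPR and Ad-BPR groups (9.86 to 6.03), and separated below ovary. Neighbouring groups overlapped in 8 of 9 pairs for Inha, Amh, Fst, Acvr1b and Acvr2a and in all 9 for Inhbb, Fstl3 and Acvr2b.

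The genes closest to each member over 32 libraries were found by the mean absolute difference of centred log2 CPM (counts scaled to library size), as a description. Nearest to Amhr2 were Kcnd2, a potassium channel gene, at 0.938 and Cst12, of the cystatin family, at 1.06, where the own mean absolute deviation of Amhr2 was 3.47. For Inha they were Prss35 (0.982) and Padi6 (1) beside its own 2.64, for Inhba Srpx2 (0.841) and Grem1 (1.1) beside 2.78, and for Amh Rims4 (1) and Inha (1.11) beside 2.66. For Inhbb, Fst and Fstl3 the nearest were Zeb2 (0.621), Cpz (1.23) and Dtnb (0.511), beside 1.22, 2 and 0.897. For Acvr1b, Acvr2a and Acvr2b they were Aacs (0.23), Lims1 (0.219) and Fgd1 (0.4), beside 0.324, 0.374 and 0.757, so that the activin receptors had little variation of their own to match.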

How the data were processed

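RNA was measured in 32 libraries of 10 groups. The submitters' processing notes name RSEM 1.3.1, STAR 2.7.0f, cutadapt 1.18, bcl2fastq and Picard, and the builds mm10 and GRCm38. No source used here gives the strandedness. One deposited table gives the authors' expected counts and another their TPM, each for 55450 genes, and all IDs matched GENCODE M21. Here the expected counts were rounded to whole numbers for the tests, and TPM were used for levels. Depth was 13987123 to 20514825 counts per library. Replicates differed beyond counting noise in all 39 pairs of a group (chi-square per degree of freedom of 10.9 or more). Each tumour's title carries a number of its own, but the labels do not give the source tumours of the allografts, and some may stem from the same tumour.

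Counts with TMM factors went into edgeR 4.0.16 (R 4.3.3) and its quasi-likelihood F test, after filterByExpr (minimum count 10, total 15), with Benjamini-Hochberg adjustment over all genes of a fit and a threshold of 0.05. Oviduct against ovary was fitted on 6 normal libraries (17334 genes), tumours against normal tissue on all 32 (20887 genes) and tumours against each other on 26 tumours (20000 genes). Standard errors are the absolute log2 fold change divided by the square root of F. The fits were also run on simulated counts in which all genes had the same spread. Spread differed between the 10 genes, so that run says little about their calls. Alternatives were DESeq2 1.42.0, RLE factors, no filter, limma 3.58.1 on log2(TPM + 1), other sets of libraries, leaving out each library, leaving out oviduct replicates 1 and 3, and the animal as a block. Oviduct and ovary replicates with the same number carry the same animal number in their titles, and their deviations correlated at -0.0844, -0.0435 and 0.0598.

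All 10 genes are described whatever their values. Of the 52 listed pathway genes, up to 3 called genes in each direction with the largest change and at least 5 CPM in the higher group could be named, and for each of the 10 genes the 2 nearest in centred log2 CPM. The members and lists were chosen with earlier results of these data known. Promoter windows came from RefSeq on GRCm38.p6. A gene of the pathway lists that the rule would name is not reported here.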

Additional observations from a re-analysis of the deposited data

Results flagged for a closer look

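In 7 of 30 combinations of gene and group that were tested, the highest library stood far from the others of its group by Dixon's test. A rate of about 1 in 20 holds for independent values with a normal distribution, which TPM of several genes in the same libraries need not be. OSE-BPR allograft replicate 2 had 87.1 TPM of Inhbb, where the others had 5.4 to 19.8 TPM, and 67.9 TPM of Amh, where the others had 0.52 to 4.83 TPM. OSE-BPR allograft replicate 5 had 20.1 TPM of Fst beside 0 to 1.24 TPM. OSE-BPR allograft replicate 1 had 37.1 TPM of Acvr1b beside 21.5 to 22.9 TPM. Pax8-BPR GEMM replicate 1 stood apart in 3 genes, with 25.5 TPM of Inha beside 3.25 to 6.1 TPM, 1.43 TPM of Amh beside 0.11 to 0.19 TPM, and 9.18 TPM of Amhr2 beside 0.37 to 1.71 TPM. That library also had 14.5 TPM of Nr5a1, where the other Pax8-BPR GEMM tumours had at most 0.48 TPM.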

How the results depend on the processing

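Of 1240 values of the 10 genes under alternatives, 1085 kept direction and call, 94 lost a call, 40 gained one and 21 changed sign, and for the named pathway genes 650, 70, 0 and 2 of 722. The calls of Inhba and Amhr2 between tumour models, and of Inha and Acvr2b in allografts, held in every alternative run. The number of called genes of the 10 moved from 8 to 3 for oviduct against ovary with all libraries in the fit. Without oviduct replicates 1 and 3 it moved from 4 to 0 for Ad-BPR, from 4 to 0 for Pax8-BPR and from 2 to 1 for Ovgp1-BPR against oviduct, where DESeq2 called 5 and the test without a filter 1. With the animal as a block 7 genes were called for oviduct against ovary, and 7971 of all genes beside 9191; besides Fstl3, Acvr2b and Inhbb this changed the call of Bmp15 (-2.65, adjusted p = 0.051) and of no other named gene.

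Leaving out each library gave 5 to 8 calls for oviduct against ovary, 2 to 8 for OSE-BPR GEMM against ovary, and 0 to 3 (Ad-BPR), 2 to 4 (Pax8-BPR) and 1 to 4 (Ovgp1-BPR) against oviduct. Between OSE-BPR and oviduct-origin tumours it gave 3 to 6 in GEMM tumours and 4 to 7 in allografts, and 2 to 3 for Ovgp1-BPR against Ad-BPR and Pax8-BPR in each. For allografts against GEMM tumours and for the difference of contrasts it gave 0 throughout. Over all genes, calls fell to 2605 (of 9191) for oviduct against ovary with all libraries, and in the other comparisons to 3114 of 4842 (OSE-BPR against ovary, without ovary replicate 2), 1629 of 5033 (Ad-BPR, without GEMM replicate 2), 2695 of 5202 (OSE-BPR against oviduct-origin, without OSE-BPR GEMM replicate 3), 1965 of 4542 (without Ovgp1-BPR GEMM replicate 3) and 2063 of 4456 (without Ovgp1-BPR allograft replicate 2).

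No gene among the 10 changed sign while called. Inhbb in Ad-BPR against oviduct moved to 0.01 with the compared groups only, 0.35 in limma, 0.02 without a filter, 0.17 without oviduct replicates 1 and 3, and -0.42 to 0.77 over single libraries. Without oviduct replicates 1 and 3, Bmp15 moved to 0.32 in Pax8-BPR and 0.48 in Ovgp1-BPR, and Inha to 0.61 in Ovgp1-BPR against oviduct. In limma, Acvr1b moved to 0.01 in Ovgp1-BPR against oviduct and 0.07 in Ovgp1-BPR against Ad-BPR and Pax8-BPR allografts. Over single libraries, sign changes left ranges of -0.12 to 0.74 for Fst and -0.01 to 1.37 for Acvr2b in Ad-BPR, -0.33 to 1.78 for Fstl3 in Ovgp1-BPR against oviduct, -0.54 to 0.07 for Acvr1b in OSE-BPR GEMM tumours and -1.34 to 0.08 for Inhbb in OSE-BPR allografts against oviduct-origin. Against Ad-BPR and Pax8-BPR, leaving out Ovgp1-BPR GEMM replicate 1 turned Inha (-1.12 to 2.7), Amh (-1.52 to 3.18) and Fstl3 (-0.84 to 1.23), and leaving out Ovgp1-BPR allograft replicate 3 turned Inha (-0.56 to 2.47), Amh (-0.7 to 2.1), Fst (-0.13 to 0.57) and Fstl3 (-0.83 to 0.76). The cause of these shifts was not tested. Using the compared groups only was not run for allografts against GEMM tumours, since it is identical to the fit used. Groups of 2 to 5 libraries limit what could be called.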
